A study of Mus musculus with 6 samples.

Results

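The mitochondrial ribosomal protein genes, named Mrpl for the large and Mrps for the small subunit, were compared between cells given mimics of miR-291-3 and cells given control mimics. The members were the protein-coding genes whose symbol is Mrpl or Mrps followed by a number and at most 1 further letter. This rule found 78 of the 24794 genes listed, 49 with the large subunit's prefix and 29 with the small subunit's, and all 78 passed the filter on low counts. All libraries came from LLC, the Lewis lung carcinoma line, an established mouse lung cancer line, and RNA with poly(A) tails was sequenced from 3 libraries with the mimic and 3 with the control. Both groups carried a transfected mimic and differed in its sequence. The labels give no genotype change, dose or time after transfection. The series' design text describes the treatment as overexpression of miR-291a-3p and asks what it does in this line. Whether replicate libraries stem from separate cultures is not stated in the labels, so p-values here reflect the variation among these libraries, which could be technical only.

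Mitochondrial ribosomes translate the few mRNAs encoded in mitochondrial DNA, all of which specify subunits of the respiratory chain and of ATP synthase. Their RNA comes from mitochondrial DNA, whereas every one of their proteins is encoded in the nucleus, made in the cytosol and imported. Many of these proteins have a counterpart in bacterial ribosomes, and others are found only in mitochondria. A microRNA pairs through its seed, a short stretch near its 5' end, with matching sites that lie mostly in the 3' untranslated region (UTR) of mRNAs, and lowers their level or translation.

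The mature miRNA is shown because its seed decides which mRNAs could be direct targets. Capitals mark bases 2 to 8, the seed, and the sequence is RefSeq's (GRCm38.p6, chr7:3218968-3218989, plus strand).
mmu-miR-291a-3p: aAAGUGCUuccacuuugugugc

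The 3' UTRs of GENCODE M21 (GRCm38, an earlier build than the GRCm39 named by the submitters' processing notes) were searched for the 8mer AGCACTTA, the 7mer-m8 AGCACTT, the 7mer-A1 GCACTTA and the 6mer GCACTT on the transcript's strand. An 8mer was found in 2 members and a 7mer-m8 as the best site in 7. For each of these 9 members the first such site in the UTR is printed 5' to 3' with the matching bases in capitals. Each site matches all of bases 2 to 8 of the miRNA, and any further site in the same UTR is not shown. A 7mer-m8 upstream of the 3' UTR was present in 3 further members, Mrpl37, Mrpl38 and Mrps22, and is not shown.
Mrpl19: acaaccaaaaAGCACTTActctcccc
Mrpl48: ctgtacgttcAGCACTTAggaggtgg
Mrpl47: agagtttaagAGCACTTgttgctct
Mrpl9: gtttaaccccAGCACTTgagaggca
Mrpl51: ctttaaaaccAGCACTTgggagaca
Mrps5: agtgtgcctaAGCACTTtctcttca
Mrps7: tcagtggcagAGCACTTgcctagca
Mrps25: aaaatattccAGCACTTgagctgtg
Mrps35: atggcatatcAGCACTTtaaagact

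Most mitochondrial ribosomal protein genes were slightly higher with the mimic. Of the 78 members 51 (65.4%) rose and 4 (5.13%) fell at an adjusted p under 0.05 in edgeR's quasi-likelihood test, and 23 were not called. Among all 13779 genes tested, 24.3% rose and 24.8% fell. The members' median change was 0.13 on the log2 scale, or 9.79%, beside -0.01 for all genes tested. The risen members had gained 5.12% to 31.7%, and 11 of them at least 1.2-fold, a size of rise that 7.61% of all tested genes passed. In 55 members every mimic library lay above every control library and in 6 every mimic library lay below, while over all genes tested 27.0% were separated upward and 27.9% downward. In bulk RNA, more transcripts per cell and a larger share of cells that express a gene cannot be told apart.

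**Figure D1:**
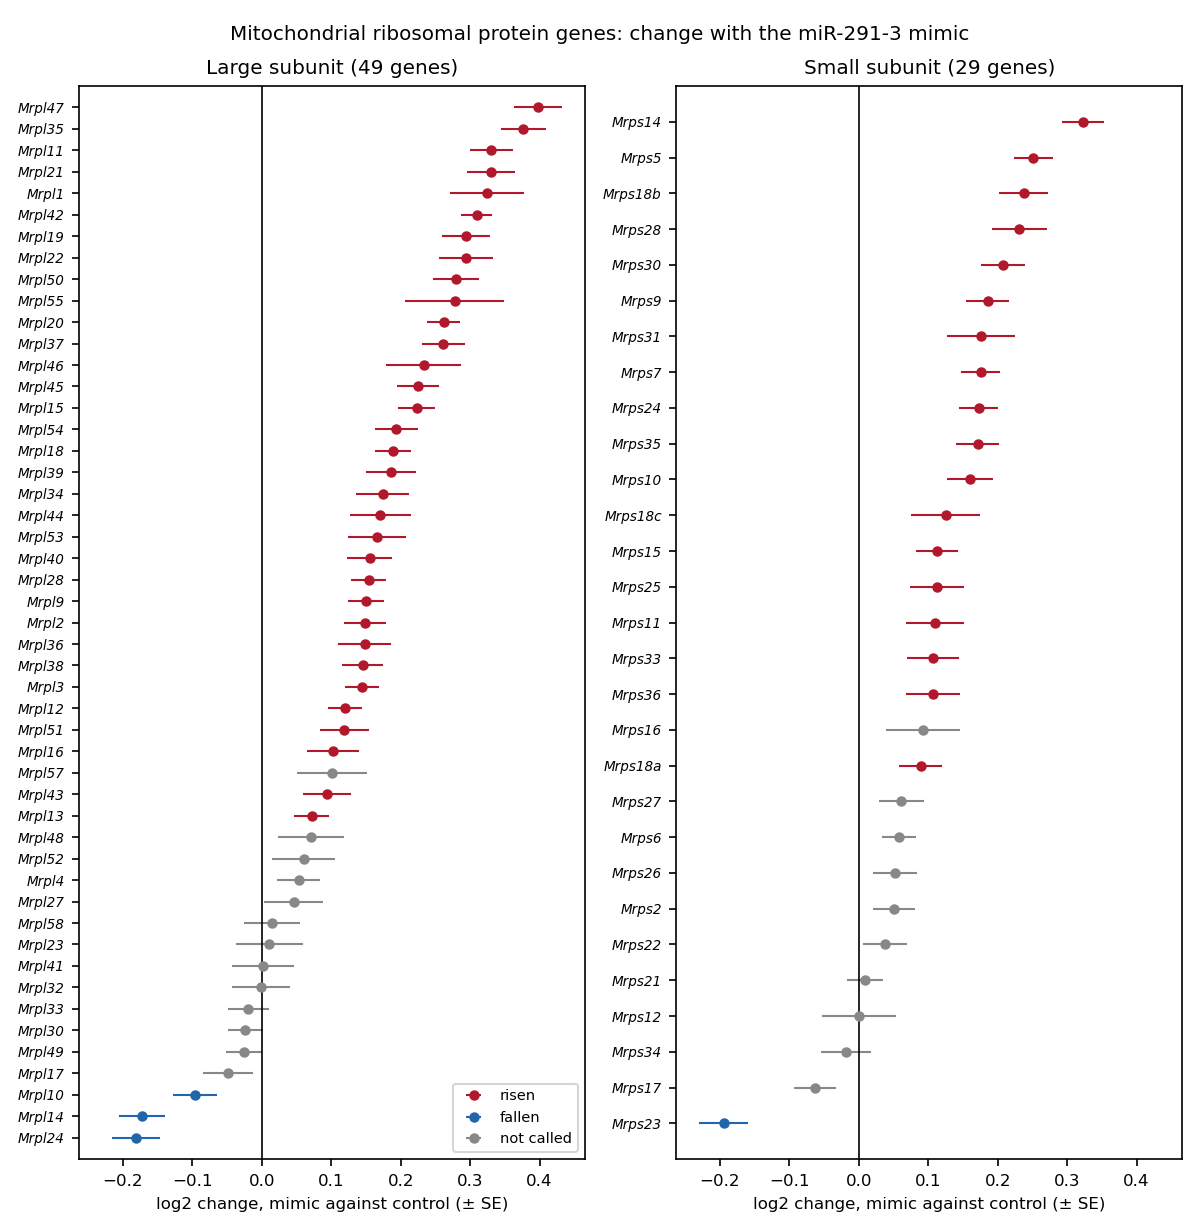
Change of each of the 78 mitochondrial ribosomal protein genes between mimic and control libraries (x axis: log2 change, points, ± SE, lines; y axis: genes ordered by change; left the large subunit, right the small subunit). Red marks the 51 risen, blue the 4 fallen and grey the 23 not called members at an adjusted p under 0.05 (edgeR, n = 3 a group); most points lie to the right of 0 in both panels.

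The libraries themselves were alike in depth, with 25376993 to 32963986 counts, and varied little within a group: the biological coefficient of variation was 2.02%, and the median member had a coefficient of variation of 2.0% in the control and 2.77% in the mimic libraries. The mesenchymal markers Vim, Sparc and Fn1 were present, at 2063, 395 and 114 CPM (read counts relative to a library size scaled by TMM) in the control libraries. Of the epithelial markers only Krt8 was well expressed, at 493 CPM in the control libraries. Krt18 was low, with 1.97 CPM in the control and 3.65 CPM in the mimic libraries, and Epcam and Cdh1 were near 0. Summed markers of leukocytes were 16.3 to 18.1 CPM in the control and 10.01 to 10.9 CPM in the mimic libraries, and those of fibroblasts and endothelium 28.1 to 32.4 and 20.2 to 25.2 CPM. Pdgfra made up most of the latter sum, with means of 29.8 and 20.04 CPM, while Col1a1 (0.0833 and 1.58 CPM) and Pecam1 (0.432 and 0.598 CPM) did not have lower means in the mimic libraries and Dcn was near 0 in both groups. Cd14 and Lyz2 made up most of the leukocyte sum, with means of 9.62 and 5.52 CPM in the control and 6.3 and 2.78 CPM in the mimic libraries. Both were called fallen, and Cd68 was not called. The defining leukocyte markers Ptprc and Adgre1 and the endothelial marker Cdh5 were at or near 0 in every library. The part of these cell markers in the members' changes was not tested. Each member had at least 361 counts in every library.

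In the large subunit 33 of 49 members rose and 3 fell, with a median of 0.15 on the log2 scale. Mrpl47, whose bacterial counterpart lies at the exit of the peptide tunnel, changed most in the family. Its level was 47.1, 46.4 and 48.0 CPM in control replicates 1 to 3 and 61.5, 61.9 and 63.2 CPM in mimic replicates 1 to 3. The groups were far apart relative to their spread, and Mrpl47 rose by 0.40 ± 0.0346 (log2, SE), or 1.32-fold (edgeR, adjusted p = 3.98e-11). Mrpl35, the counterpart of a bacterial protein buried in the ribosomal RNA, stood at 54.6, 54.8 and 55.8 CPM with the control and at 71.8, 71.4 and 71.4 CPM with the mimic. The 3 mimic libraries nearly coincided, all above the controls, and Mrpl35 rose by 0.38 ± 0.0324 (adjusted p = 3.09e-11).

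Mrpl11, which forms the base of the stalk where translation factors dock, had 69.4, 68.7 and 68.9 CPM in the control and 88.2, 88.6 and 83.6 CPM in the mimic libraries. The lowest mimic library was still well above the highest control, and the rise was 0.33 ± 0.0313 (edgeR, adjusted p = 2.42e-10). Mrpl21 had 62.7, 61.1 and 67.8 CPM in the control and 80.2, 80.3 and 80.7 CPM in the mimic libraries, so that the control libraries varied more than the mimic libraries. It rose by 0.33 ± 0.0346 (adjusted p = 2.1e-09). Mrpl42, a protein without a bacterial counterpart, had 238, 235 and 230 CPM in the control and 287, 298 and 285 CPM in the mimic libraries. Its rise of 0.31 ± 0.0222 had the smallest adjusted p of the family (5.45e-13). Mrpl1, the protein of the mobile L1 stalk that guides the exit of spent tRNA, was at 26.8, 24.0 and 26.0 CPM with the control and 29.8, 34.1 and 32.1 CPM with the mimic. Its mimic libraries were spread widely but did not overlap the controls, with a rise of 0.32 ± 0.0527 (adjusted p = 5.27e-06). Mrpl20 rose from 149 ± 2.29 to 179 ± 3.23 CPM (SD, n = 3), by 0.26 ± 0.0239 (adjusted p = 1.13e-10).

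**Figure D2:**
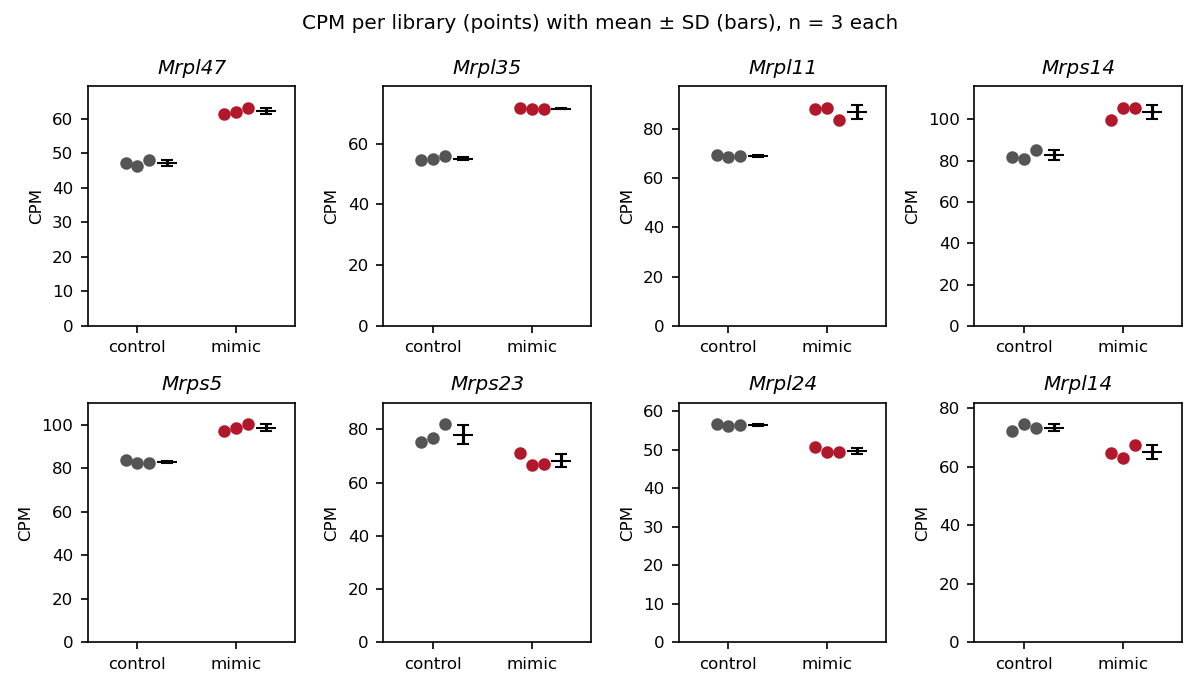
Level of 8 mitochondrial ribosomal protein genes in each library (y axis: CPM from 0; x axis: group; points: the 3 libraries of a group; bars beside them: mean ± SD). Mrpl47, Mrpl35, Mrpl11, Mrps14 and Mrps5 were higher in every mimic library than in any control library, and Mrps23, Mrpl24 and Mrpl14 lower.

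The only large subunit members that fell were Mrpl24, Mrpl14 and Mrpl10, all with a bacterial counterpart. Mrpl24 had 56.5, 56.1 and 56.4 CPM in the control and 50.6, 49.3 and 49.2 CPM in the mimic libraries. The groups were cleanly apart, and Mrpl24 fell by 0.18 on the log2 scale (SE 0.0346, adjusted p = 5.27e-05). Mrpl14, a protein of the face that meets the small subunit, had 72.2, 74.5 and 73.2 CPM against 64.6, 62.8 and 67.5 CPM. It fell by 0.17 (SE 0.0332, adjusted p = 5.99e-05), and the highest mimic library remained below the lowest control. Mrpl10, which anchors the stalk protein Mrpl12, had 74.4, 76.0 and 76.3 CPM against 71.6, 71.2 and 69.3 CPM. It fell by 0.10 (SE 0.031, adjusted p = 0.0106), but the call was lost without mimic replicate 3 (edgeR, adjusted p = 0.0851) and in DESeq2 (0.0556). Its neighbours at the stalk moved the other way: Mrpl11 rose as given above, and Mrpl12, which contacts translation factors, rose from 193 ± 5.8 to 210 ± 4.63 CPM, by 0.12 ± 0.0244 (adjusted p = 0.000123).

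In the small subunit 18 of 29 members rose and 1 fell, with a median of 0.11. The top of the range was lower than in the large subunit, and only 1 small subunit member, Mrps14, rose at least 1.2-fold, against 10 of the large subunit. Mrps14, a protein of the head of the subunit, had 81.9, 80.9 and 85.3 CPM in the control and 99.6, 106 and 105 CPM in the mimic libraries. Every mimic library exceeded every control by far, and Mrps14 rose by 0.32 ± 0.0305 (edgeR, adjusted p = 2.4e-10). Mrps5, which lines the channel through which mRNA enters, had 83.5, 82.3 and 82.5 CPM against 96.9, 98.6 and 100.1 CPM and rose by 0.25 ± 0.0284 (adjusted p = 9.14e-09). Mrps23, found only in mitochondria, was the single small subunit member that fell, with 75.3, 76.8 and 81.9 CPM in the control and 71.3, 66.6 and 67.0 CPM in the mimic libraries. Its fall of 0.19 (SE 0.0352, adjusted p = 2.69e-05) was the largest of the family, although control replicate 3 stood above the other 2 controls. Mrpl14, Mrpl24 and Mrps23 were also called fallen under every other scaling, filter and test and without any single library.

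**Figure D3:**
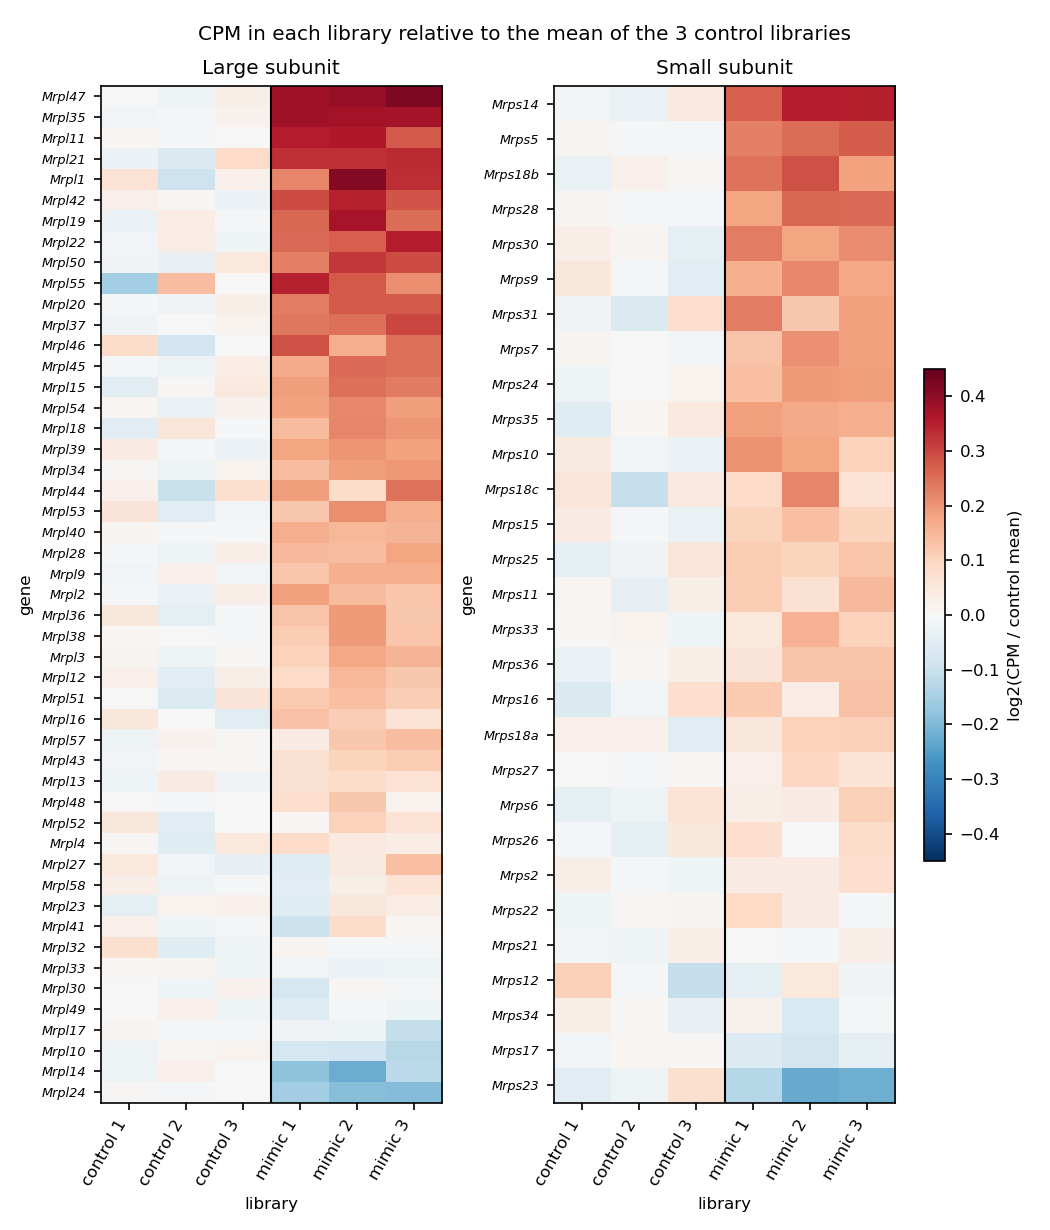
Level of every mitochondrial ribosomal protein gene in every library (colour: log2 of CPM over the mean of the 3 control libraries, red higher and blue lower; columns: libraries, controls left of the black line; rows: genes ordered by change). The 3 mimic columns are red over most rows in both panels, with 64, 67 and 65 of the 78 genes above their control mean.

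The Mrps18 family shows why the symbol does not always name the subunit. Mammals have 3 related genes, and the protein of Mrps18a sits in the large subunit, whereas those of Mrps18b and Mrps18c occupy different places in the small one. Mrps18b rose from 53.9 ± 1.01 to 63.6 ± 2.31 CPM (SD, n = 3), by 0.24 ± 0.0353 (edgeR, adjusted p = 1.23e-06). Mrps18a and Mrps18c had smaller changes, 0.09 ± 0.031 (adjusted p = 0.0174) and 0.13 ± 0.0497 (adjusted p = 0.037). Both calls were lost with library totals only and on leaving out 1 library: Mrps18a without control replicate 3, mimic replicate 2 or mimic replicate 3 (adjusted p = 0.123, 0.0594 and 0.0591), and Mrps18c without control replicate 2 or mimic replicate 2 (0.23 and 0.266).

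Mrps30 is also a large subunit protein by structure, and it rose from 70.2 ± 1.91 to 81.0 ± 1.48 CPM, by 0.21 ± 0.0316 (edgeR, adjusted p = 1.88e-06). Mrps36 is now known as a component of the 2-oxoglutarate dehydrogenase complex rather than of the ribosome. It rose by 0.11 ± 0.0387 (adjusted p = 0.0233), a call that was lost without control replicate 1, mimic replicate 2 or mimic replicate 3 (0.0896, 0.0787 and 0.0704). With these genes placed by structure, 35 of 51 large subunit members rose and 3 fell (median 0.15), and 15 of 26 small subunit members rose and 1 fell (median 0.11).

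Grouping by origin gave no sharp divide. In the large subunit 20 of 30 proteins with a bacterial counterpart rose and 3 fell (median 0.15), and 15 of the 21 found only in mitochondria rose and none fell (median 0.16). In the small subunit 10 of 16 with a counterpart rose and none fell (median 0.12), and 5 of the 10 found only in mitochondria rose and 1 fell (median 0.08). These are counts over small groups, and no difference between them was tested. Mrps18a and Mrps18b were counted as found only in mitochondria, although they are related to Mrps18c, which was counted as having a counterpart.

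The 23 members that were not called had changes between -0.06 and 0.10, and 16 of them had a positive sign. Among the well-expressed members with the smallest changes, Mrpl41 had 36.7 ± 0.572 CPM in the control and 36.6 ± 2.27 CPM in the mimic libraries (log2 change 0.00 ± 0.0445). Mrps21 had 119 ± 2.24 and 119 ± 1.64 CPM (0.01 ± 0.0262), and Mrpl30 had 163 ± 2.15 and 160 ± 4.74 CPM (-0.02 ± 0.0249). In these 3 genes the groups overlapped. The SE of members ranged from 0.0222 to 0.0715, so changes of a few percent were near the limit of what 3 libraries a group could show.

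Levels per length differed far more between members than between the groups. By the authors' FPKM (fragments scaled to exon length and sequencing depth), the mean of the 6 libraries ran from 2.95 for Mrpl48, a protein of the central protuberance, to 184 for Mrps6, with a median of 24.8. Mrpl12 was the highest of the large subunit (115) and Mrps25 the lowest of the small one (5.74). The FPKM values divide by the length of all annotated exons of a gene, which in GENCODE M21 is 1.0 to 15.3 times (median 1.37) that of its main transcript. Per kilobase of that transcript, Mrpl48 was again the lowest (6.41 CPM per kb), but Mrpl42 (394) and Mrps6 (381) were the highest. Mrps6 itself had 308, 311 and 330 CPM in the control and 322, 324 and 340 CPM in the mimic libraries. The groups overlapped, its change of 0.06 ± 0.0245 missed the threshold (edgeR, adjusted p = 0.0529), and without control replicate 3 it passed (0.00491).

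Summed over the 49 large subunit genes, the level was 3671, 3647 and 3692 CPM in the control and 4010, 4114 and 4075 CPM in the mimic libraries, a difference of 10.8%. The 29 small subunit genes summed to 2100, 2090 and 2126 CPM and to 2246, 2265 and 2279 CPM, a difference of 7.51%. In both sums the groups were apart by several times their SD. With library totals only the differences were 6.55% and 3.37%, and as summed FPKM 7.44% and 3.48%. The ratio of the large to the small sum was 1.75, 1.75 and 1.74 in the control and 1.79, 1.82 and 1.79 in the mimic libraries, so every mimic library had relatively more large subunit mRNA. The ratio rests on many of the same genes as the counts above and was not tested. All members together took 0.589% ± 0.00464 of the control and 0.620% ± 0.00476 of the mimic counts (SD, n = 3).

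The size of the rise depends on the scaling. With library totals only, the median of all tested genes moved from -0.01 to -0.06 and that of the members from 0.13 to 0.08. Then 40 members rose and 9 fell, beside 17.0% risen and 32.3% fallen of all genes tested. The 5 members newly called fallen were Mrpl17, Mrpl30, Mrpl33, Mrpl49 and Mrps17, chosen here for that change. A further 10 members, none called, turned from a positive to a negative sign, the 3 with the largest changes under TMM being Mrpl4 (0.05 to -0.00), Mrps26 (0.05 to -0.00) and Mrps2 (0.05 to -0.01). No risen member was called fallen under any setting, and 39 of the 51, 28 of the large and 11 of the small subunit, were called risen under all 16 settings run at an adjusted p under 0.05. At an adjusted p under 0.01, 42 members rose, beside 19.7% risen and 19.2% fallen of all genes tested. With a filter of 2 CPM 51 members rose, beside 28.6% risen and 29.6% fallen of all genes tested. In limma on log2(FPKM + 0.1) and log2(FPKM + 1) 41 and 39 members rose, beside 16.9% risen in both and 25.4% and 25.5% fallen.

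The mitochondrial ribosome did not stand alone. Of 80 tested proteins of the cytosolic ribosome 74 rose and 1 fell, with a median of 0.12. Of 81 tested nuclear genes of the respiratory chain and ATP synthase 60 rose and 2 fell, with a median of 0.13. A repeated entry of the symbol Atp5po was counted separately there (0.30 and 0.28, both risen). The medians of the 3 sets were close, but the mitochondrial ribosomal genes were spread more widely than the cytosolic ones, whose middle 50% lay between 0.08 and 0.14, against 0.05 and 0.20. Genes that are well expressed were called more often: among the 7465 tested genes within the members' range of mean CPM, 33.8% rose and 28.5% fell, with a median of 0.02. No difference between these sets was tested.

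**Figure D4:**
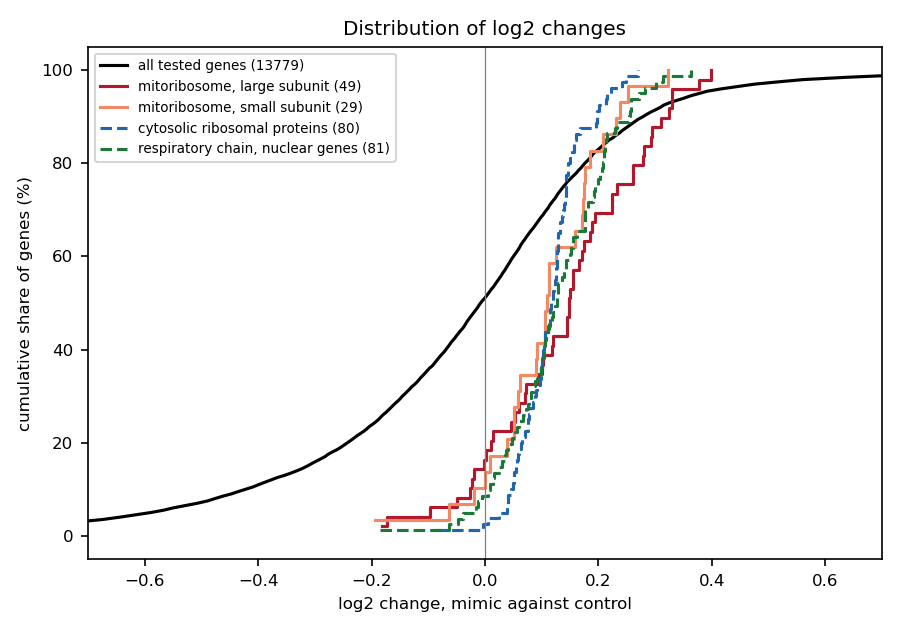
Cumulative distribution of log2 changes (x axis: mimic against control, drawn from -0.7 to 0.7; y axis: share of genes with at most that change, in percent) for all 13779 genes tested (black), the 49 large (red) and 29 small (orange) mitochondrial ribosomal genes, 80 cytosolic ribosomal genes (blue, dashed) and 81 nuclear respiratory chain genes (green, dashed). The 4 gene sets lie to the right of all genes at their medians (0.15, 0.11, 0.12 and 0.13 against -0.01), and of these 4 the red curve reaches furthest to the right.

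None of the members with a printed seed site fell, and only 4 (5.13%) of all 78 members did. Any 7- or 8-base site was present in 12 members (15.4% of 78), beside 22.4% of the 11557 tested protein-coding genes with a 3' UTR. The members' UTRs were short, with a median of 388 bases for the longest UTR of a gene, against 1169 bases for all genes. Over all genes, 988 of the 2593 with such a site fell and 479 rose, with a median of -0.07. Of the 12 members, 8 rose, 4 were not called and none fell, and their median was 0.13, close to that of the family.

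Mrpl19 has the 8mer at chr6:81957929-81957936 (minus strand), at base 4005 of a UTR of 4090 bases, and rose from 61.8 ± 1.26 to 75.7 ± 3.58 CPM (SD, n = 3), by 0.29 ± 0.0348 (edgeR, adjusted p = 2.24e-08). Mrpl48 has the 8mer at chr7:100548593-100548600 (minus strand) and was not called (26.8 ± 0.0656 against 28.1 ± 1.02 CPM, 0.07 ± 0.0477, adjusted p = 0.232). The 7mer-m8 members included the most strongly risen gene, Mrpl47 (chr3:32727242-32727248, minus strand), as well as Mrps5 (chr2:127606372-127606378, plus strand), whose values stand above.

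The other 7mer-m8 members rose by less: Mrps7 (0.18 ± 0.0285), a protein of the subunit's head, Mrps35 (0.17 ± 0.0309), Mrpl9 (0.15 ± 0.0256), Mrpl51 (0.12 ± 0.035) and Mrps25 (0.11 ± 0.0388). Of these, Mrpl51 was no longer called without control replicate 2 (edgeR, adjusted p = 0.0529) and Mrps25 not without control replicate 1 or 2 (0.0872 and 0.0514), and neither passed with library totals only. Members with a 7mer-A1 as best site, Mrpl30, Mrpl32 and Mrps26, were not called. A 6mer alone was found in 9 members, of which 8 rose. The 4 fallen members held no site of any kind, down to the 6mer, in the UTRs searched. The same was true of 57 of the 78 members (73.1%), these 4 included, and of 64.8% of the 11557 tested protein-coding genes. A site in the annotation is a match of letters and says nothing about binding, and which UTR ends LLC cells use was not measured.

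The promoters were examined because many nuclear genes for mitochondrial proteins are bound by ETS factors such as GABP, by NRF1 and by YY1. RefSeq windows of 250 bases before to 50 bases after the start (GRCm38.p6) were matched for 69 members and searched on both strands for an ETS word (CCGGAAG), an NRF1 word (GCGCATGC) and a YY1 word (AAGATGGCG). The ETS word was present in 25 members (36.2%), beside 11.9% of 17492 promoters. The NRF1 and YY1 words were each present in 8 (11.6%), beside 3.61% and 1.94%. For comparison, CCAAT was present in 39.1% and 39.0%, and the E-box CACGTG in 7.25% and 7.9%. In all, 35 of the 69 promoters held at least 1 of the first 3 words, and in 4 promoters words of the set overlapped. GC content was similar, with medians of 58.3% in the members and 56.3% in all promoters.

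The stretches below carry these words in the members that changed most among those holding each, and in the fallen ones, and are printed 5' to 3' on the gene's strand with the word, or its reverse complement, in capitals.
Mrpl35 (YY1 word, risen): ggcaggctgcAAGATGGCGgcttccatct
Mrpl42 (YY1 word, risen): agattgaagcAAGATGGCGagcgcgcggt
Mrpl21 (ETS word, risen): gctgcttccgCTTCCGGttgggactgt
Mrps23 (ETS word, fallen): gccgcttccgCTTCCGGtaacagcccg
Mrpl22 (NRF1 word, risen): gcctcggactGCGCATGCgtatagtcag
Mrpl10 (NRF1 word, fallen): ccagctccacGCATGCGCatagcggccc
The Mrpl35 stretch lies at chr6:71823743-71823771 (minus strand) and that of Mrpl42 at chr10:95501904-95501932 (minus). Those of Mrpl21 and Mrps23 lie at chr19:3283039-3283065 and chr11:88204393-88204419 (both plus), and those of Mrpl22 and Mrpl10 at chr11:58171621-58171648 and chr11:97041438-97041465 (both plus).

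The median change of members with a word was below that of members without it for ETS and NRF1, and above it for YY1. Members with the ETS word had a median change of 0.09 and those without it 0.15, and 12 of the 25 rose and 1 fell. With the NRF1 word the median was 0.07 (4 of 8 rose, 1 fell) and without it 0.12. With the YY1 word the median was 0.16 (7 of 8 rose, none fell) and without it 0.12. Of all 78 members 65.4% rose and 5.13% fell, and of all genes tested 24.3% rose and 24.8% fell. The medians by word are descriptions of small groups, and no difference between them was tested. A match of letters is not a measured binding site.

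Of 10 listed regulators of mitochondrial genes, these factors among them, 8 were tested, 6 rose and 1 fell, with a median of 0.18. Among all genes tested, 24.3% rose and 24.8% fell. Myc, a transcription factor that drives genes of ribosome and mitochondrial biogenesis, had 443, 439 and 440 CPM in the control and 574, 583 and 570 CPM in the mimic libraries. The groups were far apart, and it rose by 0.39 ± 0.0189 (edgeR, adjusted p = 9.7e-17). Nrf1 rose by 0.20 ± 0.0362 (adjusted p = 2.26e-05), Yy1 by 0.13 ± 0.024 (adjusted p = 3.46e-05) and Pprc1, a coactivator related to PGC-1, by 0.19 ± 0.0297 (adjusted p = 4.48e-06). The GABP subunit gene Gabpb1 rose by 0.23 ± 0.0477 (adjusted p = 0.000177), and Gabpa was not called (0.09 ± 0.0375, adjusted p = 0.0569). Gabpb2, a further GABP subunit gene, fell from 82.8 ± 0.423 to 69.3 ± 1.54 CPM (SD, n = 3), by 0.26 on the log2 scale (adjusted p = 2.55e-08). Ppargc1a was near 0 in all libraries. Their part in the members' changes was not tested.

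The rest of the machinery of mitochondrial translation held risen and fallen genes, and no difference from the ribosomal proteins was tested. Of 5 ribosomal proteins that carry other names, Chchd1 rose by 0.25 ± 0.0368 (edgeR, adjusted p = 9.13e-07) and Ptcd3 by 0.18 ± 0.0276 (adjusted p = 2.9e-06). Dap3, Aurkaip1 and Gadd45gip1 were not called, with changes of -0.05, 0.04 and 0.02. Of 26 assembly factors 8 rose (30.8%) and 2 fell (7.69%), with a median of 0.08, beside 24.3% risen and 24.8% fallen of all genes tested. Noa1, a GTPase of small subunit assembly, rose by 0.29 ± 0.0296 (adjusted p = 8.94e-10), Rcc1l by 0.25 ± 0.0534 (adjusted p = 0.000229) and Fastkd2, which binds the large ribosomal RNA, by 0.24 ± 0.0398 (adjusted p = 9.42e-06). Mterf4, which brings the methyltransferase Nsun4 to the large subunit, fell by 0.21 (SE 0.044, adjusted p = 0.000179).

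Of 16 translation factors and mRNA-binding proteins 3 rose (18.8%) and 2 fell (12.5%), with a median of 0.06, so that neither share was above that of all genes tested. Lrpprc and Slirp, partners that stabilise mitochondrial mRNAs, rose by 0.23 ± 0.0234 and 0.20 ± 0.0265 (edgeR, adjusted p = 7.93e-10 and 1.5e-07). The elongation factor gene Gfm1 rose by 0.07 ± 0.023 (adjusted p = 0.011), and the initiation factor gene Mtif2 fell by 0.12 (SE 0.0446, adjusted p = 0.0271). Among 19 genes for the copying, transcription and processing of mitochondrial DNA and RNA 9 rose (47.4%) and 2 fell (10.5%), with a median of 0.12. They included Ssbp1, the single-stranded DNA binding protein (0.27 ± 0.0263, adjusted p = 5.32e-10), and Tfam, which packages the DNA and starts transcription (0.14 ± 0.0307, adjusted p = 0.000214). Hsd17b10, a subunit of mitochondrial RNase P, fell by 0.17 (SE 0.0219, adjusted p = 8.19e-08), and its partner Trmt10c rose by 0.16 ± 0.0337 (adjusted p = 0.000218).

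The mRNAs that mitochondrial ribosomes translate moved the other way. Among the mRNAs of mitochondrial DNA, 13 in number, 10 fell and 1 rose, beside 24.8% fallen and 24.3% risen of all genes tested. The median of the 13 was -0.21. Their control means were 2883 to 9449 CPM for mt-Nd1, mt-Nd2, mt-Nd4, mt-Nd5, mt-Co1 and mt-Cytb, and 276 CPM for mt-Nd6. The means were only 45.4 for mt-Co2, 17.9 for mt-Atp6, 17.7 for mt-Co3, 8.1 for mt-Atp8, 2.86 for mt-Nd3 and 0.975 for mt-Nd4l. The falls of mt-Co2, mt-Atp6 and mt-Atp8 thus rest on far fewer reads, and why these levels were so low was not tested. mt-Cytb had 9412, 9515 and 9395 CPM in the control and 8032, 8185 and 8010 CPM in the mimic libraries, with no overlap, and fell by 0.23 (SE 0.0149, edgeR, adjusted p = 9.48e-14). mt-Co1 fell by 0.21 (SE 0.0165, adjusted p = 3.78e-12), mt-Nd4 by 0.17 (SE 0.0174, adjusted p = 1.26e-09) and mt-Nd2 by 0.13 (SE 0.0171, adjusted p = 2.29e-07). The exception, mt-Co3, was uneven between libraries, with 17.0, 13.5 and 22.5 CPM against 19.4, 21.8 and 30.9 CPM, groups that overlapped. Its rise of 0.44 ± 0.12 (adjusted p = 0.00288) was lost without mimic replicate 3. The ribosomal RNA genes mt-Rnr1 and mt-Rnr2 had log2 changes of -0.04 ± 0.027 (adjusted p = 0.266) and 0.13 ± 0.0348 (adjusted p = 0.00287), the second no longer called with library totals only. Since the libraries were made from RNA captured by its poly(A) tail, these levels also depend on the tails of mitochondrial transcripts, which were not measured.

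**Figure D5:**
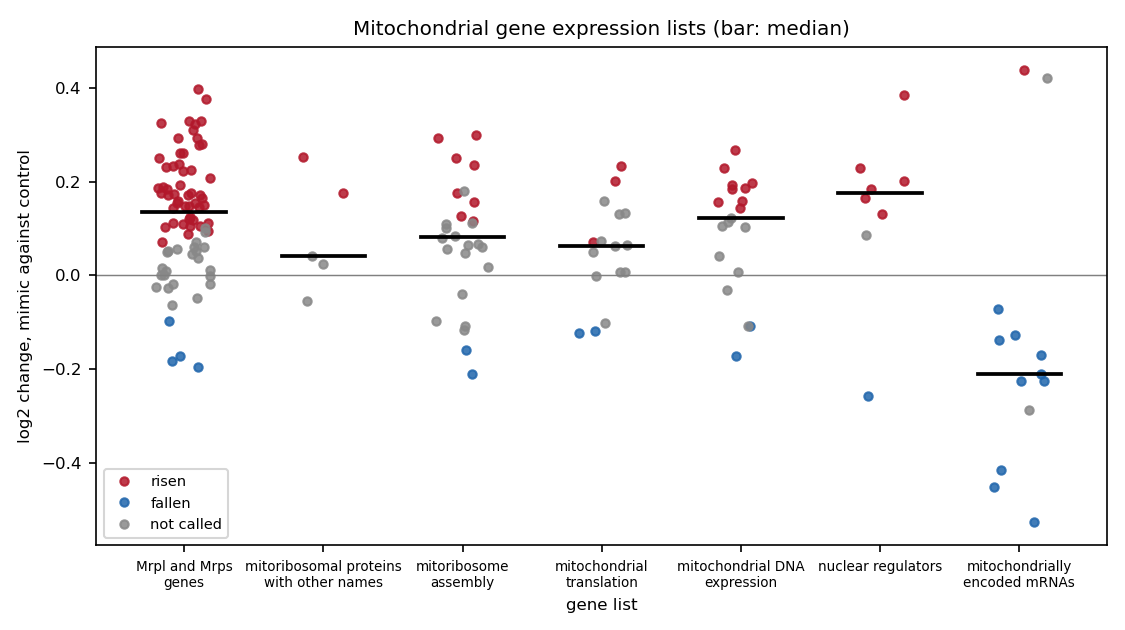
Log2 change of each tested gene in 7 groups of mitochondrial gene expression (y axis: mimic against control; x axis: gene list; points: genes, red risen, blue fallen and grey not called at an adjusted p under 0.05 in edgeR; black bars: medians). The bar of the Mrpl and Mrps genes is at 0.13, those of assembly and translation factors at 0.08 and 0.06, and that of the mitochondrially encoded mRNAs at -0.21.

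Some members share exons with another gene, and their counts are the least certain. In GENCODE M21, 28 members overlap exons of another tested gene, 25 of them a gene on the opposite strand. The libraries kept the strand, but the sources used here do not state whether the counting used it. The overlap was largest for Mrps25 (69.8% of its exonic bases, with Nr2c2), Mrps34 (63.4%, with Mapk8ip3) and Mrpl19 (36.0%, with Gcfc2). The log2 changes of Nr2c2 and Gcfc2 were -0.29 and -0.04, opposite in sign to those of Mrps25 and Mrpl19, and that of Mapk8ip3 was -0.10, of the same sign as that of Mrps34 (-0.02). Of the fallen members, Mrpl24 shares 26.3% with Rrnad1 (-0.10), Mrpl10 14.1% with Gm11574 (-0.62) and Mrpl14 11.2% with Tmem63b (0.07). Mrpl47, which changed most in the family, shares 13.9% with Ndufb5 (0.21) and 10.2% with Actl6a (0.07), both on the opposite strand. The 5 listed pseudogenes of members had at most 9 counts in any library.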

How the data were processed

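Paired-end, strand-specific RNA-seq of poly(A) RNA, per the labels' protocols, gave 6 libraries, grouped by their titles. Per the submitters' processing notes the tools included HISAT2 and DESeq2 and the build was GRCm39, with versions not listed. The authors deposited whole-number read counts for 24794 genes and FPKM values for 24494. The sources used here do not state the counting tool or its strand setting. The members and lists were chosen with earlier results of these data known.

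edgeR 4.0.16 (R 4.3.3) was run on the counts with filterByExpr, TMM, estimateDisp, glmQLFit and glmQLFTest. The 13779 genes left by the filter were adjusted together by Benjamini-Hochberg, and calls were made at 0.05. SE is the log2 change divided by the square root of F. Libraries of 1 group differed by more than sampling noise (mean chi-square per gene 1.84 to 2.23). On simulated data for this comparison, with 13633 genes tested, 52.3% of 1.2-fold, 74.2% of 1.5-fold and 85.9% of 2-fold changes were recovered, and 7 of 13438 unchanged genes were called. Only 200 genes, drawn from all levels, were changed there, so these shares are not those for the members.

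As alternatives, the scaling was replaced by DESeq2 size factors or by library totals only, and the test by DESeq2 1.42.0 or by limma 3.58.1 on log2(FPKM + 1) and log2(FPKM + 0.1), which shrinks changes of low genes. The filter was dropped, or set to 2 CPM in 3 libraries. Each library was left out in turn, a replicate block was added, a trend on transcript length was removed, the threshold was set to 0.01, and subunits were assigned by structure. Levels per kilobase of the main transcript were added after seeing the data.

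Members named are, in each subunit, the 5 called in each direction with the lowest adjusted p, the 5 largest changes in each direction over both subunits, the extremes of FPKM, Mrps18a to Mrps18c, Mrps30, Mrps36, those with an 8mer or 7mer-m8, and 3 each for sign changes and for small changes. Related lists contribute up to 4 called genes. Any other name was picked with its values known.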

Additional observations from a re-analysis of the deposited data

How the results depend on the processing

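Of the 51 risen members 44 to 49 were still called when any single library was left out, and 41 were called in each of these 6 fits. In those fits 21.6% to 23.1% of all tested genes rose and 21.2% to 22.4% fell. Whether the replicate numbers pair the libraries could not be decided. Same-numbered libraries deviated together only weakly (correlations 0.046, 0.041 and 0.063 over 8755 genes), yet each library correlated best with its own number. Sampling noise can keep such correlations small in paired libraries too. With the replicate number as a block 52 members rose and 4 fell, beside 24.7% risen and 25.3% fallen of all genes tested.

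With library totals only, fallen members were 9 (large subunit 7, small 2) and risen small subunit members 11. limma on log2(FPKM + 1) also gave 11 risen small subunit members. Fallen small subunit members were 2 in that fit, in limma on log2(FPKM + 0.1) and with the filter of 2 CPM. The large subunit's median was 0.12 with the length trend removed, 0.114 and 0.111 with FPKM + 0.1 and + 1, 0.0919 with library totals and 0.136 to 0.166 with a library left out. In the same order the small subunit's was 0.0906, 0.0738, 0.0678, 0.0527 and 0.102 to 0.125. The summed levels differed by 6.55% (large) and 3.37% (small) with library totals and by 7.44% and 3.48% as FPKM.

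Small counts in related lists moved more. One other-named ribosomal protein fell (1 against 0) with the filter of 2 CPM, both FPKM fits, library totals and without control replicate 3. Assembly factors rose in 5 cases with DESeq2 and in 4 with both FPKM fits, library totals or an adjusted p under 0.01, and fell in 1 case with DESeq2, an adjusted p under 0.01, or without control replicate 3 or mimic replicate 3 (1 to 2 over the libraries left out). Fallen translation factors were 0 with DESeq2, no filter and an adjusted p under 0.01, and 0 to 2 without 1 library. The risen mt-Co3 was not called, leaving 0, with DESeq2, both FPKM fits or without mimic replicate 3. The causes were not tested. No called member among those named changed sign. In the simulation 52.3% of 1.2-fold changes were recovered, over genes of all levels and with only 200 genes changed. In the measured data 49.1% of tested genes were called, which makes the adjusted threshold less strict. The simulated share therefore does not give the recovery among the members. Smaller changes, as most members had, were not simulated.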

Other observations

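Members often start back to back with another gene. In GENCODE M21 (GRCm38), 18 of the 78 members (23.1%) had a protein-coding neighbour on the opposite strand whose start lay within 1000 bases upstream, beside 11.1% of 11670 tested protein-coding genes. All 18 neighbours were tested, 6 rose and 1 fell, and their median change was 0.11 on the log2 scale. Of all tested protein-coding genes 27.2% rose and 27.4% fell, with a median of -0.01, so the risen count was not far from that share. In some pairs the calls differed. Mrpl51 and Ncapd2, a condensin subunit gene whose start lies 100 bases away, had changes of 0.12 and -0.30 (edgeR, adjusted p = 0.00543 and 3.51e-11). Mrpl32 and the proteasome gene Psma2, 75 bases apart, had changes of -0.00 and 0.18 (adjusted p = 0.985 and 1.62e-08). Mrpl49 and Fau, which encodes a protein of the cytosolic ribosome, 59 bases apart, had changes of -0.03 and 0.09 (adjusted p = 0.432 and 0.000562). Mrpl54 and Apba3, 26 bases apart, both rose, by 0.19 and 0.15. These pairs were picked with their values known, and no difference within a pair was tested.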
